A study of Homo sapiens with 12 samples.

Results

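AKT2, SBF1 and PPP3CB are 3 signalling genes whose cassette exons differed in inclusion between control and TIP60 siRNA in human MCF10A breast epithelial cells. A cassette exon is an internal exon that is either kept in or skipped from the mRNA, and its inclusion level, which runs from 0 to 1, is the share of transcripts of the event that keep it. The 3 exons were chosen from that siRNA difference in these same libraries, so the difference is described here and not tested, and every other event of the 3 genes was added. This gave 4 events, namely 2 of AKT2, 1 of SBF1 and 1 of PPP3CB, of 8712 events in 4797 genes listed in any library. All 4 had at least 10 reads specific to 1 isoform in each of the 12 libraries, as did 2695 events in 1884 genes, which formed the tested table.

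MCF10A is a non-tumorigenic line that is grown with epidermal growth factor (20 ng/mL), insulin (10 µg/mL) and horse serum (5%), all of which were present in every group. TIP60, the product of KAT5, acetylates lysines of histones and other proteins. The cells stably carried an empty vector (MSCV), *WT-TIP60, a wild-type TIP60 that the siRNA does not target, or *KD-TIP60, a resistant TIP60 that is catalytically dead. Each line was transfected with control or TIP60 siRNA and harvested after 72 h, with 2 libraries for each of the 6 groups. All lines keep their own KAT5 gene, and whether a line is a clone or a pool is not given in the sources used here. Nor do these say whether the 2 libraries of a group came from separate cultures, so that p-values measure only the spread between these libraries, which may be technical.

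AKT2 is a serine/threonine kinase that is activated below insulin and growth factor receptors through PI3-kinase, and it is best known for its part in insulin-stimulated glucose uptake. SBF1, also called MTMR5, is a myotubularin-related protein without phosphatase activity that binds the active lipid phosphatase MTMR2 and carries a DENN domain. PPP3CB encodes a catalytic A subunit of calcineurin, the calcium- and calmodulin-dependent phosphatase that dephosphorylates NFAT factors. AKT2 and calcineurin thus act on serine and threonine residues of proteins in opposite ways. SBF1 is tied to phosphoinositide lipids through its partner MTMR2.

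The exon sequences are shown because they fix what each event adds to the protein. All are on the minus strand of hg38 and were read from GENCODE release 29 transcripts. Capitals mark the cassette exon, and the lower-case ends are the 20 nt of the neighbouring exons to which it is spliced.
AKT2, 129-nt exon, chr19:40236257-40236385: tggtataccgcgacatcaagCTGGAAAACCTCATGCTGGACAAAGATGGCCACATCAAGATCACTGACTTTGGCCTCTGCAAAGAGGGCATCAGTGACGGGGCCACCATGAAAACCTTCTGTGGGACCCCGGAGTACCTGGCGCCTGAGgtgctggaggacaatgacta
SBF1, 78-nt exon, chr22:50457034-50457111: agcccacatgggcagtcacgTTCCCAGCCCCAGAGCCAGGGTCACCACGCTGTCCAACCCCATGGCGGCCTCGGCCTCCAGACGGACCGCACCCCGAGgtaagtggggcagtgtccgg
PPP3CB, 30-nt exon, chr10:73439872-73439901: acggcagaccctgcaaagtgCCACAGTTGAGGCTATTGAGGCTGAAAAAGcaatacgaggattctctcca

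The AKT2 exon (ENSG00000105221.16) is exon 10 of 14 in transcript AKT2-206 and is coding. It spans codons 278 to 320 of 481, in the kinase domain, and includes the activation loop. The SBF1 exon (ENSG00000100241.20) is exon 29 of 41 in SBF1-202, is coding and holds 26 codons' worth of sequence between codons 1276 and 1302 of 1893. The PPP3CB exon (ENSG00000107758.15) is exon 13 of 14 in PPP3CB-202. It is coding and adds 10 codons' worth of sequence between codons 456 and 466 of 524, toward the C-terminal end of the subunit. Each exon is a multiple of 3 long, and in the annotation the skipped form of each reaches the same stop codon as the full form. Coding transcripts without the exon are annotated for all 3: AKT2-201 and AKT2-210, SBF1-201, and PPP3CB-203. A length that is a multiple of 3 is common, as 1416 of the 2526 tested events on assembled chromosomes (56.1%) shared it. The fourth event is a 130-nt exon of AKT2 at chr19:40265222-40265351, exon 2 of 14, of which 46 nt are coding and which holds the start codon. Transcript AKT2-234 is annotated without it.

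The 12 libraries formed 2 sets by replicate number, each with all 6 groups. Libraries numbered 1 listed 6921 to 7939 events with 1983221 to 2280488 reads assigned to isoforms. Libraries numbered 2 listed 6036 to 6599 events with 1277953 to 1566296 such reads. Of all reads in the tables, assigned or not, 50.1% to 53.2% matched neither isoform in libraries numbered 1 and 64.5% to 65.7% in libraries numbered 2. Reads of KAT5 with its cassette exon, counted per 1e+06 event reads of the library (RPM), were 9.73 ± 4.71 with control siRNA and 2.01 ± 1.36 with TIP60 siRNA (SD, n = 6 each). TIP60 siRNA gave the lower value in each of the 6 pairs with a shared replicate number (exact paired permutation test, p = 0.0312, two-sided, the smallest p possible with 6 pairs). Of the cell type markers, 6 of 12 epithelial genes (CDH1, CLDN7, ESRP1, ITGB4, LAMA3 and TP63) had listed events, with summed levels of 2760 to 4530 RPM under control and 2850 to 5070 RPM under TIP60 siRNA. The 3 of 9 mesenchymal genes with events (FN1, ZEB1 and ZEB2) summed to 21.9 to 827 and 35.4 to 2490 RPM, and 2 of 5 immune genes (CD74 and LYZ) to 0 to 21.1 and 0 to 31.4 RPM. Their part in the exon differences was not tested.

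AKT2, the kinase of the group, kept its 129-nt exon in most transcripts under control siRNA and in fewer under TIP60 siRNA. In empty-vector cells the inclusion level (replicates 1 and 2) was 0.94 and 0.97 under control siRNA, and 0.83 and 0.87 under TIP60 siRNA. In the *WT-TIP60 line it was 0.92 and 0.94 against 0.80 and 0.81. The *KD-TIP60 line had 0.94 and 0.94 against 0.82 and 0.81. The 6 control libraries thus lay between 0.92 and 0.97, above all 6 TIP60-siRNA libraries at 0.80 to 0.87. The group means were 0.955 ± 0.0212 with control and 0.85 ± 0.0283 with TIP60 siRNA for empty vector, 0.93 ± 0.0141 with control and 0.805 ± 0.00707 with TIP60 siRNA for *WT-TIP60, and 0.94 ± 0 with control and 0.815 ± 0.00707 with TIP60 siRNA for *KD-TIP60 (SD, n = 2). The differences were −0.105, −0.125 and −0.125 in this order of lines (SE 0.0159 each, from limma). That SE also takes in the shift between the replicate sets. A limma fit with the replicate number as a block gave an SE of 0.0129 each.

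The AKT2 levels rest on few reads of the skipped form. Reads joining the neighbouring exons without the 129-nt exon numbered 1 and 4 in empty-vector control libraries and 8 and 21 with TIP60 siRNA. The *WT-TIP60 line had 4 and 7 against 17 and 37 such reads. The *KD-TIP60 line had 2 and 10 against 12 and 26. Reads specific to the form with the exon numbered 116 to 465 per library, in part because that form offers more places for a specific read. MISO's model allows for this, so the inclusion level is lower than the plain share of reads. As the plain share of isoform-specific reads, the siRNA difference was −0.039 in empty-vector, −0.0549 in wild-type and −0.0513 in catalytically dead cells, in the same direction and smaller. The widest MISO interval (taken as 95%) was 0.74 to 0.91, in empty-vector TIP60-siRNA replicate 1.

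SBF1, the pseudophosphatase of the myotubularin family, had the widest siRNA difference of the 4 exons. In empty-vector cells its 78-nt exon had inclusion levels of 0.58 and 0.72 under control siRNA, and 0.14 and 0.22 under TIP60 siRNA. The *WT-TIP60 line had 0.61 and 0.78 against 0.12 and 0.34. The *KD-TIP60 line had 0.61 and 0.82 against 0.12 and 0.34. By these levels most SBF1 transcripts of the event carried the exon in every control library and lacked it in every TIP60-siRNA library. The lowest control library (0.58) stood above the highest TIP60-siRNA library (0.34). Group means were 0.65 ± 0.099 with control and 0.18 ± 0.0566 with TIP60 siRNA for empty vector, 0.695 ± 0.12 with control and 0.23 ± 0.156 with TIP60 siRNA for *WT-TIP60, and 0.715 ± 0.148 with control and 0.23 ± 0.156 with TIP60 siRNA for *KD-TIP60 (SD, n = 2). The differences were −0.47, −0.465 and −0.485 (SE 0.119 each, or 0.0373 each with the replicate number as a block).

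The replicate sets were apart for SBF1. Replicate 2 was higher than replicate 1 in all 6 groups, by 0.08 to 0.22. Within same-number pairs the siRNA difference ran from −0.50 to −0.44, a narrower span than the levels, and its mean was −0.473 in each set. Reads with and without the exon numbered 55 and 14 in empty-vector control replicate 1 against 21 and 60 with TIP60 siRNA. In replicate 2 they were 26 and 5 against 9 and 18. Reads were even in replicate 2 of the other lines with TIP60 siRNA, at 16 and 16 in *WT-TIP60 (MISO interval of the level 0.20 to 0.52) and 16 and 15 in *KD-TIP60 (0.19 to 0.50). Over all 12 libraries, 27 to 151 reads were specific to 1 SBF1 isoform, so single levels in the second set had wide intervals, such as 0.53 to 0.91 in the empty-vector control library.

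PPP3CB, the calcineurin subunit, differed in the opposite direction. In empty-vector cells its 30-nt exon had inclusion levels of 0.62 and 0.50 under control siRNA, and 0.94 and 0.88 under TIP60 siRNA. The *WT-TIP60 line had 0.65 and 0.50 against 0.85 and 0.79. The *KD-TIP60 line had 0.59 and 0.50 against 0.88 and 0.88. About as many control transcripts lacked the exon as carried it in the second set, whereas the form with the exon predominated in all 6 TIP60-siRNA libraries (0.79 to 0.94). Group means were 0.56 ± 0.0849 with control and 0.91 ± 0.0424 with TIP60 siRNA for empty vector, 0.575 ± 0.106 with control and 0.82 ± 0.0424 with TIP60 siRNA for *WT-TIP60, and 0.545 ± 0.0636 with control and 0.88 ± 0 with TIP60 siRNA for *KD-TIP60 (SD, n = 2). The differences were 0.35, 0.245 and 0.335 (SE 0.0626 each, or 0.0353 each with the replicate number as a block).

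Reads specific to a PPP3CB isoform numbered 37 to 76 per library, because most reads of the event fall in exons that both forms share. Reads without the exon numbered 11 and 36 in empty-vector control libraries against 1 and 3 with TIP60 siRNA. The *WT-TIP60 line had 16 and 32 against 5 and 11 such reads, and the *KD-TIP60 line 20 and 32 against 5 and 5. Replicate 2 was lower than replicate 1 in 5 of 6 groups and equal in 1, which is the reverse of SBF1. Without wild-type control replicate 1 the difference in wild-type cells was 0.32, and without wild-type control replicate 2 it was 0.17.

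**Figure D1:**
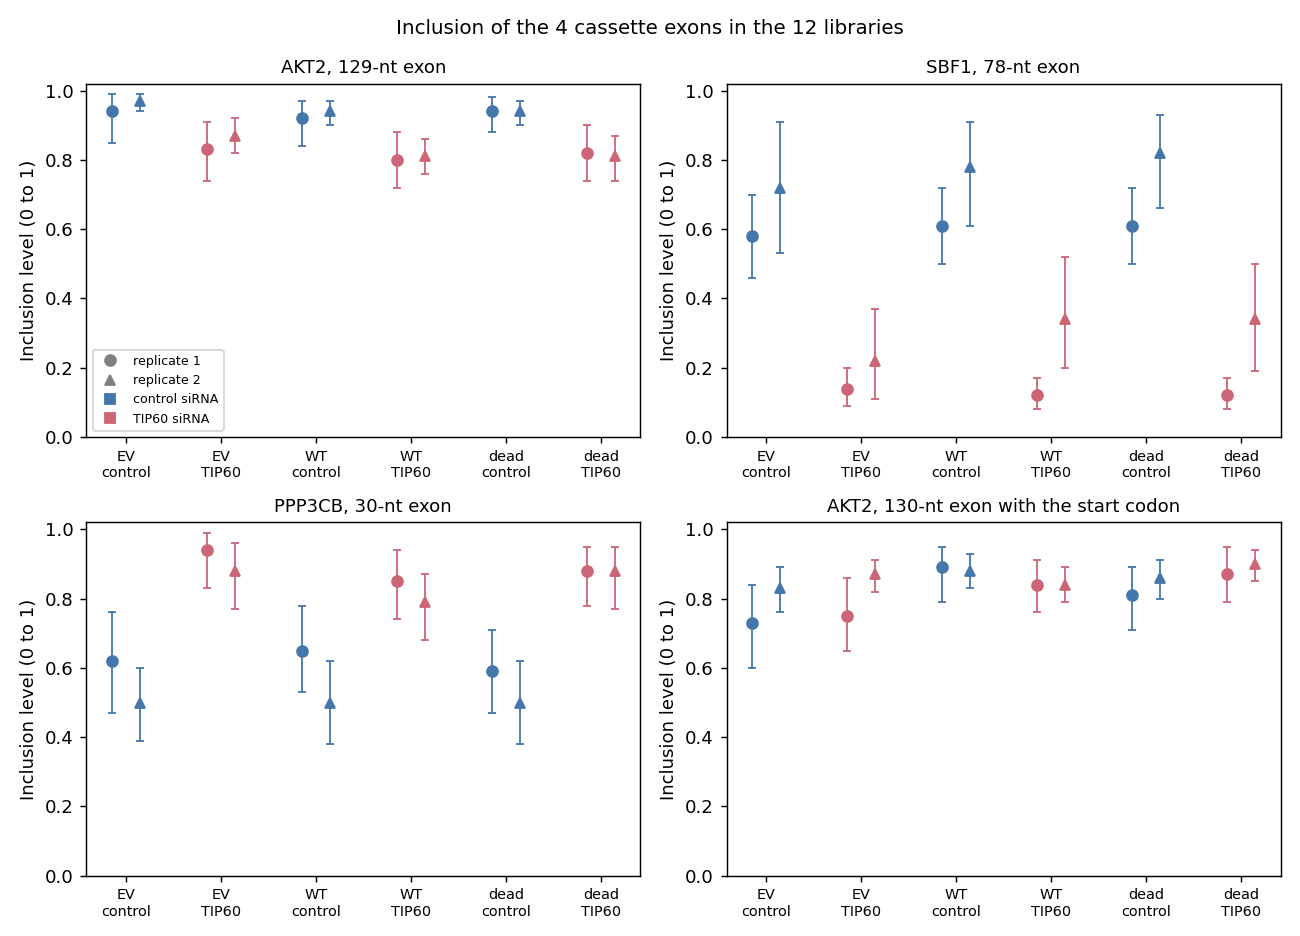
Inclusion level (vertical axis, 0 to 1) of the 4 cassette exons in each library, by construct (EV, empty vector; WT, wild-type TIP60; dead, catalytically dead TIP60) and siRNA, with MISO's interval as bars. The 129-nt exon of AKT2 and the exon of SBF1 are lower, and that of PPP3CB higher, in all 6 TIP60-siRNA libraries than in all 6 control libraries, while the 130-nt exon of AKT2 overlaps.

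Among all 2695 tested events, 70 (2.6%) had all 6 TIP60-siRNA libraries below all 6 control libraries, and 12 (0.445%) had all 6 above. AKT2 and SBF1 are 2 of the 70, and PPP3CB is 1 of the 12. Since the siRNA difference chose the 3 exons, nothing is read from these counts. Averaged over the 6 pairs, the difference was −0.118 for AKT2, −0.473 for SBF1 and 0.31 for PPP3CB, beside a median of −0.00667 over all tested events. In order of size, SBF1 was the 3rd lowest of 2695 and PPP3CB the 2nd highest, whereas AKT2 was 140th from the lowest and close to full inclusion under control siRNA. In all 6 pairs 255 events (9.46%) were lower and 63 (2.34%) higher with TIP60 siRNA. At an adjusted p under 0.05 the limma fit called 1 event (0.0371%) in empty-vector cells and 0 (0%) in wild-type cells. It called 1 (0.0371%) in catalytically dead cells. These counts are background, and the chosen exons are not judged by them.

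The 2 isoforms of each event were also taken singly. The form of AKT2 without its 129-nt exon had 3.19 to 8.65 times the control RPM under TIP60 siRNA within the 6 pairs (median 5.38), while the form with the exon had 0.836 to 1.43 times (median 1.11). For SBF1 both forms differed: the form with the exon stood at 0.269 to 0.555 times (median 0.402) and the form without at 3.5 to 6.73 times the control RPM (median 5.0). For PPP3CB the form without the exon stood at 0.0865 to 0.346 times (median 0.21) and the form with at 0.882 to 1.58 times (median 1.34). Thus, as a ratio, the form without the exon stood furthest from control in AKT2 and PPP3CB, and in SBF1 both forms stood away from it. In AKT2 that ratio has a low base. Under control siRNA its form without the exon had 0.466 to 6.38 RPM, beside 54.0 to 297 RPM for the form with it. The counts behind the forms without the exon are small, down to 1 read in a library for AKT2 and for PPP3CB, so single ratios are loose.

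**Figure D2:**
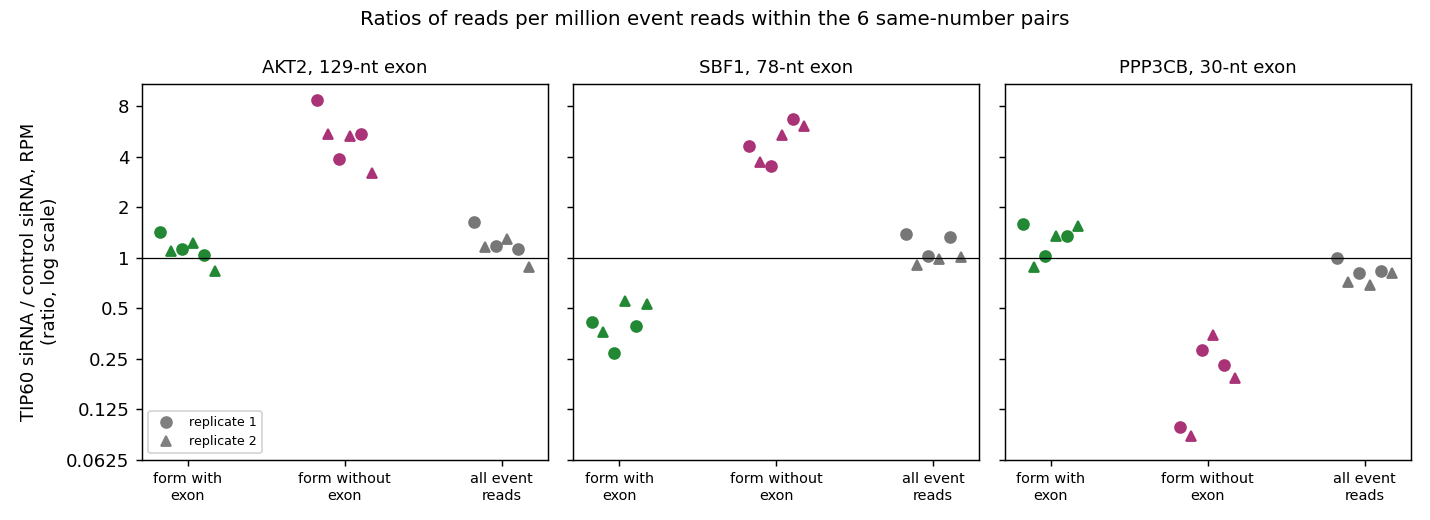
Ratio of RPM (reads per 1e+06 event reads), TIP60 siRNA over control siRNA (log axis), in each of the 6 same-number pairs for the form with the exon, the form without it and all reads of the event. In AKT2 and PPP3CB the form without the exon lies far from 1 and the form with it near 1, and in SBF1 both forms lie away from 1 on opposite sides.

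All reads of an event give a rough view of the gene's transcript level. In bulk RNA, fewer expressing cells and less RNA per cell cannot be told apart. Event reads of SBF1 were 0.904 to 1.39 times the control RPM (median 1.02) and were lower in 2 pairs and higher in 4. Those of PPP3CB were 0.692 to 1.0 times (median 0.81), lower in 5 pairs and level in the other. Those of the 129-nt event of AKT2 were 0.883 to 1.63 times (median 1.17), higher in 5 pairs. The 2 sets differed in level: the form of AKT2 with the 129-nt exon stood at 54.0 to 91.0 RPM in the first set and 247 to 325 RPM in the second, whereas SBF1 event reads stood at 41.9 to 82.9 RPM in the first and 20.5 to 25.8 RPM in the second. Ratios of the 3 genes' reads were therefore taken within same-number pairs.

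The other AKT2 exon, 130 nt long and with the start codon, did not separate the siRNAs. In empty-vector cells its inclusion was 0.73 and 0.83 under control siRNA, and 0.75 and 0.87 under TIP60 siRNA. The *WT-TIP60 line had 0.89 and 0.88 against 0.84 and 0.84. The *KD-TIP60 line had 0.81 and 0.86 against 0.87 and 0.90. The control range (0.73 to 0.89) and the TIP60-siRNA range (0.75 to 0.90) overlap almost wholly, and 2 of 6 pairs were lower and 4 higher. The differences were 0.03, −0.045 and 0.05 (SE 0.0451 each, or 0.0342 each with the replicate number as a block). The value in empty-vector cells turned to −0.02 when control replicate 1 was left out. It turned to −0.03 when replicate 2 with TIP60 siRNA was left out. Event reads were higher with TIP60 siRNA in 6 of 6 pairs, at 1.05 to 1.62 times (median 1.29).

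The resistant constructs allow a further question, namely whether the siRNA difference was smaller where a resistant copy was present. The 3 exons were chosen from the siRNA difference in these same lines, so tests of this question are not independent of that choice. The form of KAT5 without its cassette exon, which was abundant in the lines with a construct, stood at 2290 and 93.0 RPM in wild-type and 988 and 35.1 RPM in catalytically dead control libraries, against 8.38 and 0.731 RPM in empty-vector control libraries. Under TIP60 siRNA the same form stood at 1650 and 76.8 RPM in wild-type, 885 and 28.2 RPM in catalytically dead and 2.52 and 0 RPM in empty-vector cells. The 0 stands for 0 reads in that library, which allows an expected count of up to 3 (counting error only). Most reads of this KAT5 event matched neither isoform. Under control siRNA these numbered 23233 and 28928 in wild-type, 10397 and 15027 in catalytically dead and 135 and 177 in empty-vector libraries (replicates 1 and 2). The lower RPM of the form in replicate 2 is therefore not a measure of a lower construct level there.

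For none of the 4 exons did the siRNA difference vary between lines by the test of that difference. Over 12 such tests 0 had an unadjusted p under 0.05 and every adjusted p was 1.0 (limma, two-sided, Benjamini-Hochberg over 2695 events). Limma called 0 of 2695 events (0%) in each of these 3 comparisons. For AKT2 the difference of siRNA effects was −0.02 between wild-type and empty-vector cells (95% interval −0.073 to 0.033) and 0 between catalytically dead and wild-type cells (−0.053 to 0.053). At the upper bound the siRNA difference in the wild-type line would be smaller by 0.033, beside −0.105 in empty-vector cells. The sign of the AKT2 value depends on the scale. Wild-type minus empty vector was 0.277 on log2 odds of the inclusion level and 0.385, also in log2 odds, in a quasi-binomial model of the reads. Catalytically dead minus empty vector was 0.147 and 0.404 in the same order, against −0.02 on the inclusion level.

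For SBF1 the siRNA effect in wild-type cells differed from that in empty-vector cells by 0.005 (95% interval −0.393 to 0.403). The pairs share replicate number and the set shift is large for this exon, so a fit with the replicate number as a block narrowed the interval to −0.123 to 0.133. Catalytically dead cells differed from empty-vector cells by −0.015 (−0.143 to 0.113 with the block) and from wild-type cells by −0.02 (−0.148 to 0.108 with the block). For PPP3CB the siRNA effect in wild-type minus that in empty-vector cells was −0.105 (−0.314 to 0.104, limma adjusted p = 1.0). With the block its interval was −0.227 to 0.017 (limma adjusted p = 1.0). The value ran from −0.18 without wild-type control replicate 2 to −0.03 without wild-type control replicate 1. It also moved by over 1.5 times without empty-vector control replicate 1 (−0.165) or 2 (−0.045). The catalytically dead line differed from empty vector by −0.015 (−0.224 to 0.194) and from wild-type by 0.09 (−0.119 to 0.299), the latter from 0.015 to 0.165 without 1 library. These p-values do not show that the lines respond alike, and the intervals give the sizes that remain possible.

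The lines were also compared without the siRNA contrast. Under control siRNA, wild-type minus empty-vector inclusion was −0.025 for the 129-nt exon of AKT2 (95% interval −0.063 to 0.013), 0.045 for SBF1 (−0.236 to 0.326) and 0.015 for PPP3CB (−0.133 to 0.163). Catalytically dead minus empty vector was −0.015 (−0.053 to 0.023), 0.065 (−0.216 to 0.346) and −0.015 (−0.163 to 0.133) in the same order. Under TIP60 siRNA, catalytically dead minus wild-type was 0.01 (−0.028 to 0.048), 0 (−0.281 to 0.281) and 0.06 (−0.088 to 0.208). Those intervals come from the fit without the replicate block, so they also take in the shift between the replicate sets. With the block the SBF1 intervals were −0.046 to 0.136, −0.026 to 0.156 and −0.091 to 0.091, in the order of these 3 comparisons. Without the block none of the 12 construct tests of the 4 exons passed (limma adjusted p = 1.0 for each). Limma called 0 of 2695 events (0%) in each of the 3 comparisons. With the block none of the 12 passed either (smallest limma adjusted p = 0.951). In order of the group means, the 3 TIP60-siRNA groups of the 129-nt AKT2 exon and of SBF1 came lowest and their 3 control groups highest, and the reverse held for PPP3CB. For the neighbours in this order that were tested within a siRNA, the intervals crossed 0 in both fits, which does not show that they are equal. The empty-vector group of AKT2 under TIP60 siRNA (0.85 ± 0.0283) stood above the catalytically dead group (0.815 ± 0.00707), a gap for which no test was run.

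Of the construct tests of the 4 exons, that of the start-codon exon of AKT2 had the smallest unadjusted p, while the adjusted values did not rank the tests. Its inclusion under control siRNA was 0.78 ± 0.0707 in empty-vector cells and 0.885 ± 0.00707 in wild-type cells (SD, n = 2), a difference of 0.105 (95% interval −0.002 to 0.212, limma adjusted p = 1.0). With the replicate block the interval was 0.022 to 0.188 (limma adjusted p = 1.0). At an unadjusted p under 0.05, 121 of 2695 events (4.49%) passed in the same comparison with the block, this exon among them. The wild-type level was higher in both replicates, at 0.89 against 0.73 and 0.88 against 0.83.

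**Figure D3:**
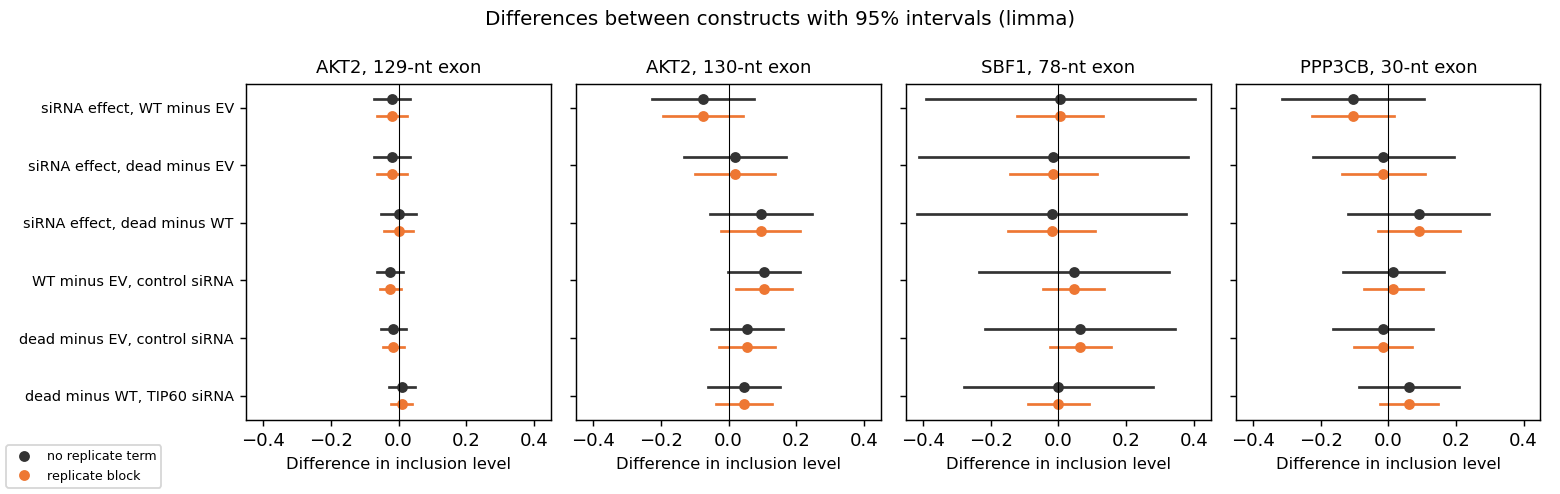
Differences in inclusion level between lines (horizontal axis) for the 4 exons, with 95% intervals from limma without a replicate term and with the replicate number as a block. The upper 3 rows are differences of the siRNA effect and the lower 3 are differences between constructs under 1 siRNA. All intervals cross 0 except that of the 130-nt AKT2 exon for wild-type minus empty vector with the block (0.022 to 0.188).

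Calcineurin has 3 catalytic A subunit genes, and each has a 30-nt exon among the listed events. That of PPP3CA (ENSG00000138814.16) is exon 13 of 14 in PPP3CA-203. It is shown because 26 of its 30 nt (86.7%) are identical to the PPP3CB exon.
PPP3CA, 30-nt exon, chr4:101029166-101029195: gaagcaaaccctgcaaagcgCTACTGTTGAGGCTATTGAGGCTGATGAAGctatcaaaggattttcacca
The PPP3CA exon was hardly included. Its inclusion level was 0.02 to 0.08 over the 12 libraries, and 0 of 298 isoform-specific reads carried it, which allows a share of up to 1.01% (counting error only). Since 0 reads carried the exon in any library, these levels above 0 are MISO posterior means and not a measured share. The PPP3CC exon had levels of 0.64 and 0.69 under control siRNA, and 0.47 and 0.67 under TIP60 siRNA, in empty-vector cells. The *WT-TIP60 line had 0.49 and 0.24 against 0.52 and 0.30. The *KD-TIP60 line had 0.50 and 0.46 against 0.57 and 0.54. Its siRNA ranges overlapped (0.24 to 0.69 and 0.30 to 0.67), and its pair differences ran from −0.17 to 0.08. The PPP3CA exon had 9 to 56 and the PPP3CC exon 8 to 37 isoform-specific reads per library. Neither exon reached the minimum of 10 in all 12 libraries, so they have no test. Both were chosen for description after their values were seen. The kinase paralog AKT1 had 1 listed event, an 84-nt exon with too few reads for the test.

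**Figure D4:**
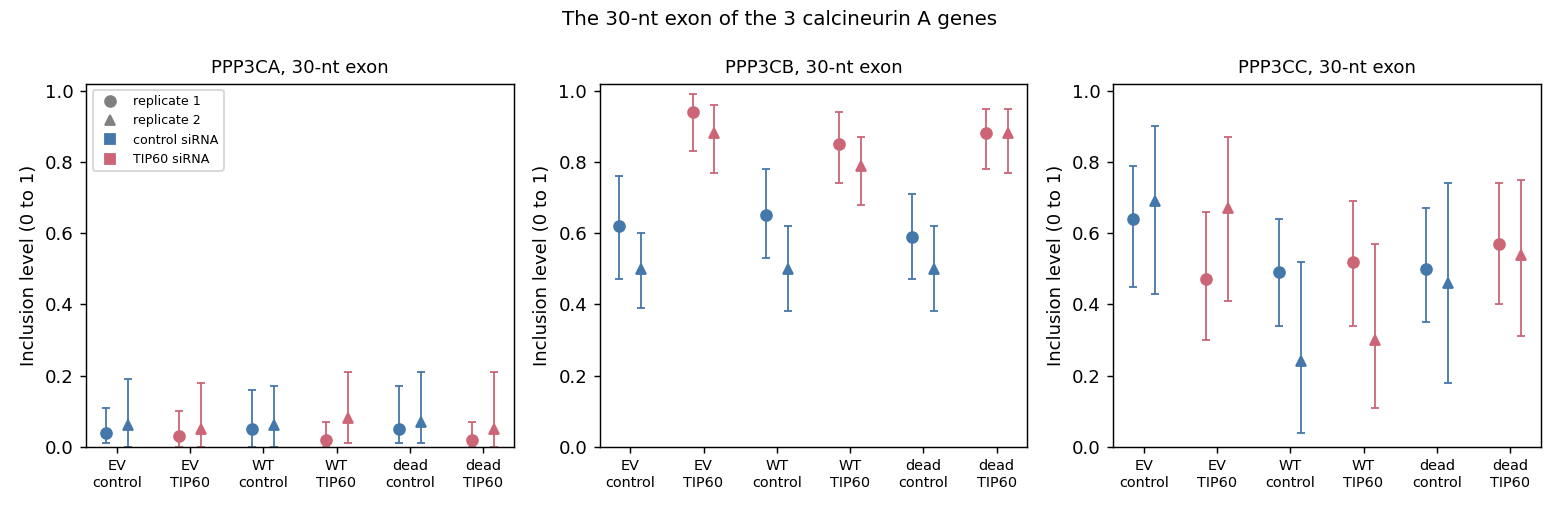
Inclusion level (vertical axis, 0 to 1) of the 30-nt exon of PPP3CA, PPP3CB and PPP3CC in each library, by construct and siRNA, with MISO's interval as bars. PPP3CA stays at 0.02 to 0.08, which are posterior means with 0 reads carrying the exon. PPP3CB is higher in every TIP60-siRNA library, and the PPP3CC ranges of the 2 siRNAs overlap.

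Other genes around the 3 members were read from 5 lists. The insulin, PI3-kinase, AKT and mTOR list held 45 genes other than the members, of which 4 (BAD, GRB2, MAPKAP1 and TSC2) had 9 tested events. The phosphoinositide list held 44 genes, of which 6 had 10 tested events, among them MTMR2, the active partner of SBF1. The DENN domain list held 22 genes, with 1 tested event in ST5. The calcineurin and NFAT list held 33 genes, of which 11 had 17 tested events, including NFATC1, NFATC3, CABIN1 and CALM3. The serine/threonine phosphatase list held 52 genes, of which 7 had 8 tested events. None of the events in these lists passed limma's adjusted threshold in any of the 9 comparisons. Over all 2695 tested events the same fit called 1 (0.0371%) in empty-vector, 0 in wild-type and 1 (0.0371%) in catalytically dead cells for the siRNA. It called 0 in each other comparison. With so few calls, and 1 to 17 events per list, the absence of a call does not show that the lists were unaffected.

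In the 3 siRNA comparisons, at an unadjusted p under 0.05, 1 event of these lists was higher in catalytically dead cells and 1 was lower in empty-vector cells. The first was a 45-nt exon of PI4KB, a phosphatidylinositol 4-kinase, with 0.06 and 0.08 under control and 0.12 and 0.16 under TIP60 siRNA (difference 0.07, SE 0.0246, limma adjusted p = 0.521). The second was a 132-nt exon of PPP1CA, a catalytic subunit of protein phosphatase 1, with 0.95 and 0.97 against 0.92 and 0.88 (difference −0.06, SE 0.0183, limma adjusted p = 0.447). Both were singled out after their values were seen. Over all tested events, 138 (5.12%) were lower and 40 (1.48%) higher at that level in empty-vector cells. In wild-type cells 97 (3.6%) were lower and 19 (0.705%) higher, and in catalytically dead cells 154 (5.71%) and 28 (1.04%). In the 3 siRNA comparisons the lists' counts, at 1 of 10 phosphoinositide and 1 of 8 phosphatase events, are too small to set against these shares.

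The median siRNA difference in empty-vector cells was −0.005 for the insulin list, −0.0525 for the phosphoinositide list, −0.015 for the calcineurin list and −0.0675 for the phosphatase list, beside −0.005 over all tested events. The single ST5 event differed by −0.13 in empty-vector, 0.005 in wild-type and −0.07 in catalytically dead cells. In wild-type cells the medians of the other 4 lists were 0.005, −0.0375, −0.005 and −0.035 in the same order, beside −0.005, and in catalytically dead cells they were 0, −0.0325, −0.01 and −0.0225, beside −0.01. Lower inclusion in 6 of 6 pairs was seen in 1 of 10 phosphoinositide events, a 173-nt exon of PI4KB. It had 0.05 to 0.14 with control and 0.03 to 0.08 with TIP60 siRNA (mean difference −0.0333). It was also seen in 1 of 8 phosphatase events, a 165-nt exon of PPP1CA that starts at the same position as the 132-nt exon (0.76 to 0.93 against 0.46 to 0.92, mean difference −0.117). Each had a limma adjusted p of 1.0 in all 3 lines, and neither separated its libraries by siRNA. Both counts are near the 9.46% of all tested events that were lower in 6 of 6 pairs.

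Levels of the 3 chosen exons ran together across libraries. After the mean of each replicate set was taken off, Pearson r over the 12 libraries was 0.912 between AKT2 and SBF1, −0.913 between AKT2 and PPP3CB, and −0.968 between SBF1 and PPP3CB. These values describe libraries that fall into 2 siRNA groups, by which the exons were chosen. The exons most like AKT2 were a 111-nt exon of the collagen receptor DDR1 (r = 0.956), an 87-nt exon of the actin regulator ABI1 (0.954) and a 63-nt exon of MPRIP, which binds myosin phosphatase (0.95). Most like SBF1 were a 234-nt exon of ARHGAP17 (0.985), a 45-nt exon of the myosin light chain MYL6 (0.973) and, inversely, PPP3CB. Most like PPP3CB, all inversely, were MYL6 (−0.974), SBF1 and a 175-nt exon of DAD1 (−0.966), whose own mean level differed only from 0.98 with control to 0.96 with TIP60 siRNA. The ARHGAP17 exon went from a mean of 0.71 to 0.215 and that of MYL6 from 0.773 to 0.268.

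The 3 exons differed in length. The PPP3CB exon was among the shortest, as 1.82% of tested exons were no longer, against 19.0% for SBF1 and 52.3% for the 129-nt exon of AKT2. The median tested exon had 126 nt. The introns before the exons were 1583 nt long in AKT2, 2143 nt in SBF1 and 4823 nt in PPP3CB, on both sides of the median of 2130 nt. The introns after them were 152, 360 and 1451 nt long, below the median of 1850 nt, and 7.32%, 16.0% and 42.5% of tested events had one no longer. The GC content of the exons was 55.8%, 71.8% and 46.7% in the same order. The start-codon exon of AKT2, by contrast, lay between introns of 19829 and 8167 nt.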

How the data were processed

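The 12 libraries are stranded mRNA RNA-seq. Reads were aligned with STAR to hg38, per the submitters' processing notes, which name no version. The inclusion level, as deposited, is a fraction, the MISO posterior mean with its interval, per the file headers, and the deposited tables also give read counts per isoform class. Events were placed on genes with GENCODE release 29. RPM was computed as reads of an event per 1e+06 reads that fitted any isoform in the library. Inclusion was fitted with limma 3.58.1 in R 4.3.3 on all 12 libraries, as 1 factor of 6 groups, over events with at least 10 isoform-specific reads in each library. Tests were two-sided and adjusted by Benjamini-Hochberg over all events, with a threshold of 0.05, and the fit was tested on simulated data, where few of the shifted events were recovered without the replicate block and most with it. Same-number libraries deviated together in all 15 pairs of groups (r = 0.706 to 0.779), so the numbers pair the samples. This pairing comes from the data and the titles, not from a stated shared batch.

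The members and gene lists were chosen with earlier results of these data known. The named genes are the members, their paralogs, list events that moved 1 way in 6 of 6 pairs, and the 3 events most correlated with each member. List events with an unadjusted p under 0.05 in a siRNA comparison (limma) and the only tested event of the DENN list were also named. KAT5, the cell type markers and some further genes with tested events in the lists were named too. Alternatives were the replicate block, a minimum of 20 reads or none, log2 odds, the share of isoform-specific reads, a quasi-binomial model, and leaving out each library. Isoform reads are not counted by molecule, so intervals and limits cover counting error only.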

Additional observations from a re-analysis of the deposited data

How the results depend on the processing

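The siRNA differences of the 3 chosen exons kept their sign in all 162 alternative values, and 7 of these moved beyond the spread between replicates: the share of isoform-specific reads for AKT2 in the 3 lines, 2 AKT2 values in empty-vector cells without 1 library (−0.085 and −0.125) and the 2 PPP3CB values in wild-type cells given above. The start-codon exon of AKT2 in empty-vector cells ran from −0.03 to 0.09 without 1 library, and turned to −0.02 and −0.03. The tests between constructs gave 432 alternative values for the 4 exons. All 432 missed the threshold (adjusted p from 0.951 to 1.0) and 34 had the other sign. The number of events called over the whole table depended on the fit. With the replicate block it was 4 in empty-vector, 4 in wild-type and 10 in catalytically dead cells, against 1, 0 and 1 without it, and the block changed no other call. On the share of isoform-specific reads it was 5, 2 and 12 for the siRNA, 3, 7 and 6 for the differences of siRNA effects (wild-type minus empty vector, dead minus empty vector, dead minus wild-type), and 2, 5 and 4 for the construct comparisons in the order of the report. In empty-vector cells 0 events passed with no read minimum, on log2 odds and in the quasi-binomial model. In catalytically dead cells 2 passed with at least 20 reads, and 0 on log2 odds and in the quasi-binomial model. Without 1 library the counts ran from 0 to 7 in empty-vector, 0 to 2 in wild-type and 0 to 8 in catalytically dead cells, and from 0 to 1 for dead minus wild-type under TIP60 siRNA. The causes were not tested. Depth limits SBF1 and PPP3CB most, with means of 66.6 and 55.0 isoform-specific reads per library against a median of 101 over tested events.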
